A study of Mus musculus with 6 samples.

Results

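The 10 genes described here encode surface proteins through which antigen-presenting cells and T cells stimulate or restrain each other. They were taken from the gene list of a single-cell RNA sequencing study by their symbols. The 6 genes of the antigen-presenting side, here called presenting-side genes, are the ligand genes Cd80, Cd86, Icosl, Cd274 and Pdcd1lg2 and the gene of the receptor CD40. The 4 receptor genes of the T cell side are Cd28, Ctla4, Icos and Pdcd1. All 10 were found among 20394 genes measured in 32953 cells, and every one is accounted for in every cell class. Male C57BL/6 mice, bought at 8 weeks of age by the methods of the study, were immunized with 10 μg methylated bovine serum albumin (mBSA) in complete Freund's adjuvant and challenged with 100 μg mBSA in the knee on day 21, which gives antigen-induced arthritis (AIA). PEPITEM, a peptide derived from the protein 14-3-3ζ, was injected into the peritoneum at 300 μg in 4 samples, and the vehicle phosphate-buffered saline (PBS) in the other 2, so that every mouse had arthritis. Cells that carried CD45, the surface protein of leukocytes, were sorted from the digested synovium on day 3 after the challenge, and Ptprc, the gene of CD45, was detected in 95.8% of the cells (94.9% to 96.6% over libraries). The barcodes end in a library number from 1 to 6, and no source used here links a number to a sample, so vehicle and PEPITEM could not be compared. The libraries are therefore given as 6 libraries of unknown treatment, which are not replicates of a group, and no test between them was made.

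CD80 and CD86 on an antigen-presenting cell bind CD28, which supplies the second signal that a T cell needs beside its antigen receptor, and they also bind CTLA-4, which takes them away from CD28 and restrains the response. ICOSL engages ICOS on activated T cells, and CD40 receives the help that T cells give through CD40 ligand. PD-L1 (Cd274) and PD-L2 (Pdcd1lg2) engage PD-1 (Pdcd1), an inhibitory receptor of activated lymphocytes. In arthritis the pathway is known as the target of a CTLA-4 fusion protein that blocks CD80 and CD86.

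Each cell was placed in a class by the marker genes it contained, for example at least 3 of 6 T cell genes or 5 of 9 macrophage genes, and none of the 10 genes served as a marker. A class name means cells that resemble that type by these genes. Of the cells, 31208 (94.7%) fell into 28 classes, 518 passed gates that should not occur together and were called mixed, and 1227 passed none. Fewer cells stayed in a lymphoid class than passed its gate. These were 939 of 1275 for T cells, 247 of 458 for NK cells and 97 of 195 for type 2 innate lymphoid cells. The 26 classes with at least 50 cells were ordered. A level is the count of a gene's unique molecular identifiers (UMIs, barcodes that each stand for 1 captured RNA molecule) per 1000000 UMIs of the class, written CPM. Brackets give 95% intervals, exact Poisson for a level and Wilson for a share of cells, and both cover counting error only. Because a deeply sequenced cell has more chances to show a gene, shares of positive cells are also given after each cell was thinned to 2000 UMIs, which left out 579 shallower cells. Levels are compared between classes within 1 gene, not between genes.

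The libraries held 2919 to 9345 cells and 47273569 to 123367661 UMIs, with a median of 9923 to 14001 UMIs per cell. Their makeup differed: neutrophils made up 9.97% to 41.9% of a library, macrophages 11.2% to 39.3%, B cells 11.2% to 36.0% and T cells 1.92% to 6.10%. The same barcode sequence occurred in more than 1 library for 276 cells (0.838%).

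The genes lie close together in sets. On chromosome 1 (mm10), Cd28 (60716800 to 60773359) is followed by Ctla4 (60887000 to 60915832) after 114 kb and then by Icos (60977927 to 61000320) after 62.1 kb, while Pdcd1 is apart at 94038305 to 94052553. On chromosome 19, Cd274 (29367455 to 29388095) and Pdcd1lg2 (29410919 to 29471161) are separated by 22.8 kb. Cd80 (38455561 to 38496335) and Cd86 (36603869 to 36666081) share chromosome 16, Cd40 is on chromosome 2 (165055627 to 165072948) and Icosl on chromosome 10 (78069302 to 78083913). Cd86 and Pdcd1 are on the minus strand and the others on the plus strand. RefSeq promoter sequences (GRCm38.p6) were matched for 6 of the 10 genes, and those of the neighbors Cd274 and Pdcd1lg2 are shown because the levels of these 2 genes are set side by side below. Each line gives the 250 bases before the start on the plus strand, chr19:29367188-29367437 for Cd274 and chr19:29410669-29410918 for Pdcd1lg2, with capitals for a match to the NF-kB consensus.
Cd274: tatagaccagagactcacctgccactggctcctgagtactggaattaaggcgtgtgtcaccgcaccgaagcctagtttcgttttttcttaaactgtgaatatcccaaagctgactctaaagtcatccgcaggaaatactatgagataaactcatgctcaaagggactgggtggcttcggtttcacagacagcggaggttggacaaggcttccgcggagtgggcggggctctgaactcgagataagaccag
Pdcd1lg2: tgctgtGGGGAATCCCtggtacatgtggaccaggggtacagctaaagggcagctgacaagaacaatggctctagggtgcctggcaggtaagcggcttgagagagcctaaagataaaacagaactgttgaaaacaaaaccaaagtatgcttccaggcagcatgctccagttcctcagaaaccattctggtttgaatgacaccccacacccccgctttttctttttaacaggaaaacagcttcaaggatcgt
Over these 250 bases both strands of the 6 promoters were searched for the core of the interferon-stimulated response element (GAAA, any 2 bases, GAAA), the gamma-activated site (TTCNNNGAA) and the NF-kB consensus. The only match was that of the NF-kB consensus in Pdcd1lg2, 244 to 235 bases before the start. It reads as a match on both strands and counts as 1 site. Among 32841 promoters of the same length, 3.90% hold the NF-kB consensus, 7.02% the gamma-activated site and 2.98% the response element core. A match is a description of letters, and a window without one says nothing about a factor.

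The main pattern was a split by side. All 6 presenting-side genes, Cd40 among them, reached their highest level in Ccr7 dendritic cells, the mature dendritic cells that migrate to lymph nodes, although these were only 167 cells or 0.507% of all cells. The 4 receptor genes of the T cell side were highest in T cells or innate lymphoid cells: Cd28 in conventional Cd4 T cells, Ctla4 and Icos in Foxp3 T cells, and Pdcd1, in pooled values, in type 2 innate lymphoid cells (ILC2), which could not be ranked against gamma-delta-type T cells. The share of all genes that peak in these classes was not computed, so the counts only describe the 10 genes. The Ccr7 dendritic cell gate itself uses genes of the mature state, such as Ccr7 and Fscn1. The map of all 10 genes over the 26 classes shows these maxima together with the second homes of each gene.

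**Figure D1:**
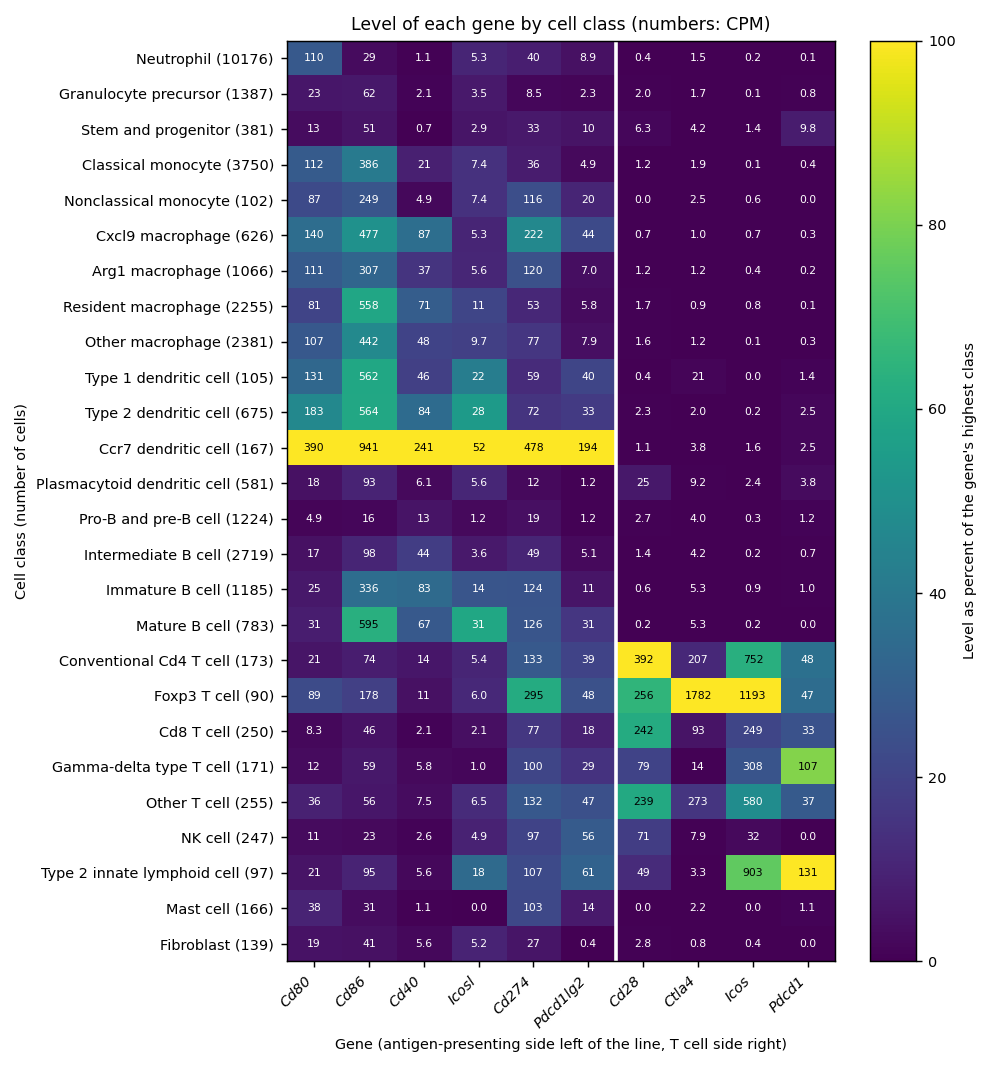
Level of the 10 genes (columns) in 26 cell classes (rows, with the number of cells). Printed numbers are CPM pooled over 6 libraries, and colour gives the level as a percent of the highest class of the same gene. The presenting-side genes peak in the Ccr7 dendritic cell class, at 390.5 CPM for Cd80 and 194 CPM for Pdcd1lg2, and the receptor genes of the T cell side in T cell classes or ILC2.

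Cd80, a ligand of both CD28 and CTLA-4, stood at 390.5 CPM [371 to 411] in Ccr7 dendritic cells. In libraries 1 to 6 its level there was 371, 337, 426, 388, 409 and 300.5 CPM. Type 2 dendritic cells came next with 183 CPM [176 to 190], and their libraries gave 190, 151, 266, 227, 170 and 107 CPM. The libraries of the 2 classes did not overlap. Below them, Cxcl9 macrophages (140 CPM), type 1 dendritic cells (131 CPM), classical monocytes (112 CPM) and Arg1 macrophages (111 CPM) followed each other with overlapping libraries. Cd80 was found in 88.0% of Ccr7 dendritic cells, at a median of 19121 UMIs per cell, and in 2.53% of pro-B and pre-B cells, at 7795 UMIs. After thinning these shares were 47.3% and 0.0821%.

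Cd86, which binds the same receptors as Cd80, was at 941 CPM [910 to 973] in Ccr7 dendritic cells, and the libraries gave 881, 707, 1067, 867, 945 and 961 CPM. Unlike Cd80 it had a second peak outside the myeloid cells, in mature B cells at 595 CPM [575 to 615]. Type 2 dendritic cells (564 CPM), type 1 dendritic cells (562 CPM) and resident macrophages (558 CPM) were at nearly the same level as mature B cells, and all of these overlapped over libraries. Ccr7 dendritic cells were above mature B cells in 6 of 6 libraries, although the ranges of both classes overlapped.

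Cd40, the receptor for T cell help, reached 241 CPM [225 to 257] in Ccr7 dendritic cells, and its libraries gave 308, 247, 205, 177, 294 and 241 CPM. Cxcl9 macrophages followed at 86.7 CPM with 78.6, 62.0, 74.1, 115, 77.8 and 89.1 CPM, so that the libraries of both classes did not overlap. Type 2 dendritic cells (84.3 CPM) and immature B cells (83.4 CPM) could not be ranked against Cxcl9 macrophages.

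Icosl, the ligand of ICOS, was the rarest presenting-side gene with 3838 UMIs in all cells. Its level in Ccr7 dendritic cells was 51.8 CPM [44.7 to 59.7], with 61.1, 109, 55.9, 29.3, 41.5 and 42.3 CPM over the libraries. Mature B cells (30.9 CPM) and type 2 dendritic cells (28.2 CPM) came next, and Ccr7 dendritic cells were above mature B cells in each library. In library 4 the 2 classes were nearly equal (29.3 against 29.1 CPM, from 21 against 15 UMIs). Icosl was found in 0 of 166 mast cells, at a median of 4383 UMIs per cell. By the limit that 3 counts set, up to 1.81% of mast cells could hold a UMI of Icosl, and this does not limit how many express it.

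Cd274, which encodes PD-L1, had 479 CPM [456 to 501] in Ccr7 dendritic cells and 562, 289, 529, 351, 521 and 402 CPM over the libraries. Foxp3 T cells came next (295 CPM), then Cxcl9 macrophages (223 CPM). Pdcd1lg2, which encodes PD-L2, had 194 CPM [180 to 208], and the libraries gave 219, 9.49, 190, 181, 229 and 241 CPM. Library 2 stood apart, but its value came from 2 UMIs in 11 cells. In library 2 the type 2 dendritic cells (8.15 CPM) and the Cxcl9 macrophages (4.13 CPM, 1 UMI in 8 cells) were also the lowest of all libraries for Pdcd1lg2, while Icosl in its Ccr7 dendritic cells was the highest.

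Against all 6328 macrophages, Ccr7 dendritic cells had more of every presenting-side gene in 6 of 6 libraries. For Pdcd1lg2 in library 2 this was 9.49 against 5.25 CPM and rested on 2 UMIs in 11 Ccr7 dendritic cells. How many of all genes were higher in Ccr7 dendritic cells in each library was not computed. The ratio was smallest for Cd86 with 2.08 (log2 1.05 [1.00 to 1.10]), and it was 3.76 for Cd80 (log2 1.91 [1.83 to 1.99]), 4.17 for Cd40 and 4.93 for Cd274. It was largest for Icosl with 6.01 and for Pdcd1lg2 with 16.7 (log2 4.07 [3.94 to 4.19]). Against type 2 dendritic cells the ratios ran from 1.67 for Cd86 to 6.65 for Cd274, with Icosl higher in 5 of 6 libraries. Ccr7 dendritic cells also contained macrophage marker RNA, with 1400 CPM summed over 9 genes against 10240 CPM in macrophages. The part of this RNA in these levels was not tested.

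The presenting-side genes were often detected together in single Ccr7 dendritic cells. Each alone was found in 88.0% (Cd80), 97.6% (Cd86), 83.2% (Cd40), 41.3% (Icosl), 91.6% (Cd274) and 65.3% (Pdcd1lg2) of them. Whether the genes met more often than these shares give was not tested. The median cell had UMIs of 5 of the 6 presenting-side genes, 86.8% had at least 4, and 26 cells had all 6. Cxcl9 macrophages had a median of 4 and type 2 dendritic cells of 3, while neutrophils had 1. After thinning to 2000 UMIs, 41.3% of Ccr7 dendritic cells still showed at least 3 of them, compared with 11.1% of type 2 dendritic cells, 10.6% of Cxcl9 macrophages and 0.501% of neutrophils. Cd274 and Pdcd1lg2 were both detected in 62.9% of Ccr7 dendritic cells and in 32.8% of Cxcl9 macrophages. A high level per cell did not make the class the main source of RNA: it held 3.34% of all Cd80 UMIs, 2.77% of those of Cd86 and 11.6% of those of Pdcd1lg2, while macrophages held 31.2%, 46.9% and 24.3%.

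**Figure D2:**
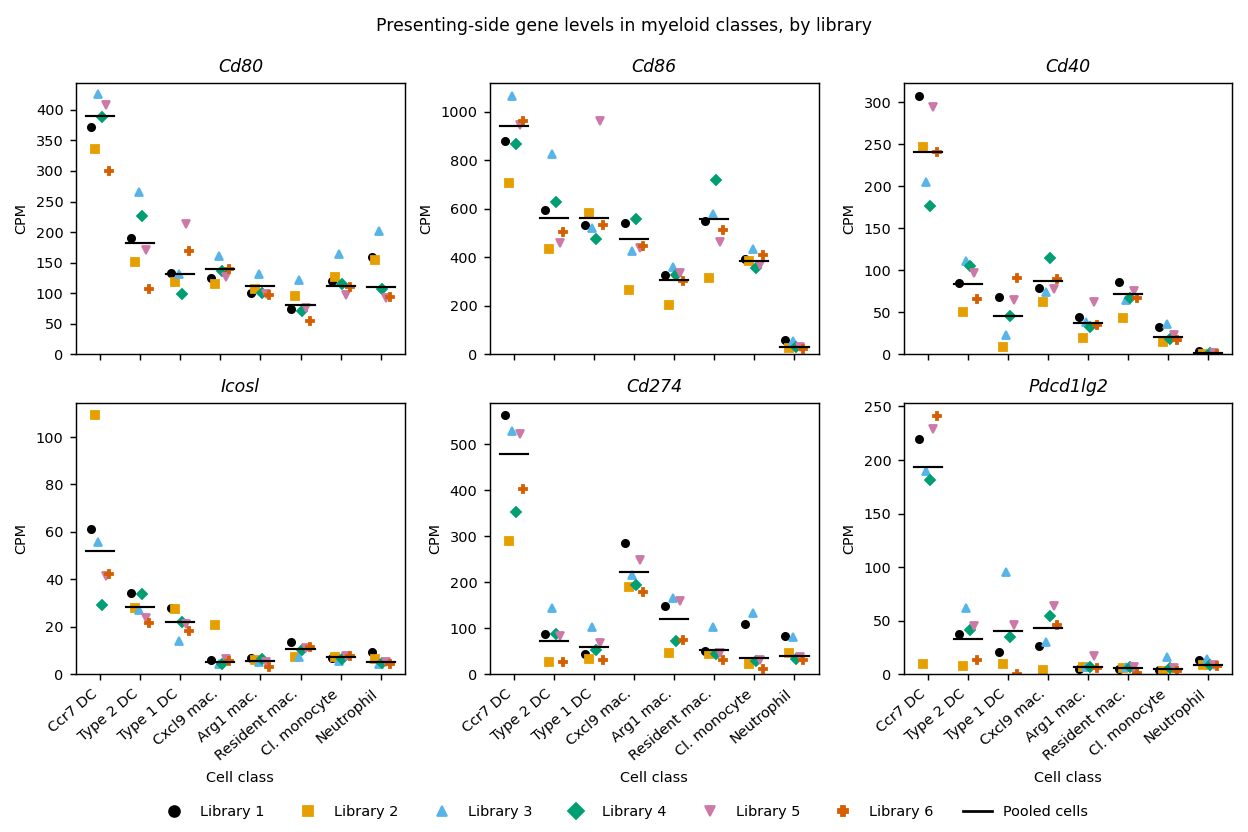
Level of each presenting-side gene in CPM in 8 myeloid classes, with 1 marker shape per library of unknown treatment and a line for the pooled cells. In Ccr7 dendritic cells the Pdcd1lg2 point of library 2 lies at 9.49 CPM, far under the other libraries at 181 to 241 CPM.

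Macrophages were divided into cells with the T cell-attracting chemokine gene Cxcl9 (626 cells), cells with the arginase gene Arg1 (1066 cells), cells with at least 2 of 5 resident genes such as Lyve1 and Folr2 (2255 cells), and the rest. The genes of the PD-1 ligands were the ones that separated Cxcl9 macrophages from resident macrophages most. Cd274 was at 223 CPM [215 to 230] in Cxcl9 macrophages and at 53.4 CPM [51.2 to 55.8] in resident macrophages, a ratio of 4.16 that was at least 2.12 in each library. Over libraries 1 to 6 the Cxcl9 macrophages had 286, 190, 216, 194, 248 and 178 CPM. The resident macrophages had 50.2, 44.3, 102, 43.5, 46.1 and 32.1 CPM. The libraries of both classes did not overlap, and the thinned shares of positive cells were 30.7% and 5.89%. Pdcd1lg2 was 7.58 times as high in Cxcl9 macrophages (43.6 against 5.76 CPM), in 5 of 6 libraries.

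Cd86 did not follow this order: resident macrophages had 558 CPM and Cxcl9 macrophages 477 CPM, and the resident cells were higher in all 6 libraries. In library 1 the difference was small (550 against 542 CPM). In thinned cells the levels were close, with 590 CPM in resident and 563 CPM in Cxcl9 macrophages. The thinned share of Cd86-positive cells went the other way, with 51.8% of resident and 57.5% of Cxcl9 macrophages. The level of Icosl was higher in resident macrophages (10.8 against 5.28 CPM, in 5 of 6 libraries). Cd80 was 1.74 times as high in Cxcl9 macrophages in 6 of 6 libraries, and Cd40 1.21 times in 5 of 6. Arg1 macrophages lay below resident macrophages for Cd86 (307 CPM), Cd40 (36.7 against 71.4 CPM) and Icosl (5.62 CPM) in every library. They were above them for Cd274 (120 CPM) in every library. Cd274 was uneven in the Arg1 macrophages, with 148, 47.1, 165, 73.4, 160 and 74.3 CPM over the libraries.

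Cxcl9 is itself a target of interferon-gamma and was used to choose the class. H2-Ab1, an MHC class II gene, was at 4140 CPM in Cxcl9, 1526 CPM in Arg1 and 852 CPM in resident macrophages, the same order as Cd274.

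Classical monocytes, the blood-derived precursors of many macrophages in inflamed tissue, carried Cd80 (112 CPM) and Cd86 (386 CPM) close to the macrophage levels of 104 and 453 CPM. Their Cd274 was low in most libraries but not in all, with 110, 22.4, 133, 29.5, 31.7 and 12.3 CPM. Libraries 1 and 3 were high, and they were also the highest libraries for Cd274 in neutrophils. The 102 nonclassical monocytes, the patrolling type, had 3.23 times the Cd274 of classical monocytes (116 against 35.7 CPM, higher in 5 of 5 libraries with enough cells). For Cd40 they had 0.236 times as much and were lower in each.

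Neutrophils, the most frequent class with 10176 cells, had Cd80 but little Cd86. Cd80 was at 110 CPM [108 to 112], and the libraries gave 160, 154, 202, 108, 92.0 and 94.0 CPM. This was 0.976 times the level in classical monocytes, and neutrophils were the higher in 3 of 6 libraries. Cd86 was at 29.1 CPM in neutrophils, 0.0753 times the monocyte level, with 60.1, 26.4, 55.1, 32.1, 28.1 and 23.0 CPM over the libraries. The monocytes ran from 356 to 434 CPM, so the classes did not overlap. Cd40 was close to absent in neutrophils at 1.08 CPM (0.609% of cells). Neutrophils held 27.2% of all Cd80 UMIs and 2.49% of those of Cd86.

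The ratio of Cd80 to Cd86 showed the same contrast without reference to other genes. In neutrophils there were 3.77 UMIs of Cd80 per UMI of Cd86 (2.66 to 5.84 over libraries). There were 0.291 in classical monocytes, 0.230 in macrophages, 0.415 in Ccr7 dendritic cells and 0.0513 in mature B cells. The granulocyte precursors, earlier stages of the same line, had 0.374 (0.215 to 0.708 over libraries). Cell by cell, 38.8% of neutrophils had Cd80 without Cd86, 5.67% Cd86 without Cd80 and 7.06% both. Of the classical monocytes 4.19% had Cd80 alone and 64.8% had both. The monocytes were deeper (a median of 17517 against 7386 UMIs per cell), and after thinning Cd80 without Cd86 was found in 19.8% of neutrophils and 9.51% of monocytes.

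Macrophage RNA in neutrophils was low: the 9 macrophage markers summed to 83.9 CPM (64.2 to 311 over libraries) and at least 1 was found in 33.0% of the cells. The 8 monocyte markers summed to 1017 CPM in neutrophils (806 to 1094 over libraries, any marker in 80.1% of cells) against 6330 CPM in classical monocytes. Most of it was Ly6c2 (773 CPM) and Plac8 (213 CPM), while Ccr2, F13a1 and Vcan were at 3.84, 4.74 and 1.50 CPM in neutrophils and at 641, 1014 and 550 CPM in classical monocytes. In the 6817 neutrophils with no macrophage marker UMI, a subset chosen after the values were seen, Cd80 was at 86.0 CPM, Cd86 at 15.3 CPM and Cd274 at 27.0 CPM. In the 997 neutrophils with neither a monocyte nor a macrophage marker UMI, chosen likewise, Cd80 was at 239 CPM (198 to 379 over libraries), Cd86 at 51.7 CPM and Cd274 at 116 CPM. Their median depth was 4027 UMIs per cell, near that of the neutrophils with the least granule RNA described next. In the other direction, the 9 neutrophil markers summed to 10330 CPM in classical monocytes (3798 to 16430 over libraries, 90.2% of cells). In macrophages they summed to 10550 CPM (5246 to 21660 over libraries, 70.7% of cells). The part of this RNA in the monocyte and macrophage levels was not tested.

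As shares of UMIs, Cd80 and Cd274 were higher in neutrophils with less granule RNA. The cells were sorted by the share of their UMIs from Ngp, Camp and Ltf, granule protein genes that are transcribed in immature neutrophils and shut down as they mature. In 4138 cells with 3% or more, Cd80 was at 57.6 CPM (47.7 to 79.7 over libraries), and in the next 3 groups at 147, 168 and 239 CPM. In 2273 cells with less than 0.01% it was at 268 CPM (221 to 416 over libraries). The libraries of the first and the last group did not overlap. The thinned share of Cd80-positive cells went from 10.8% to 34.2%.

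Cd274 took the same course, with 16.1, 28.0, 53.9, 112 and 129 CPM over the 5 groups. Its libraries ran from 8.2 to 47.5 CPM in the first group and from 95.2 to 228 CPM in the last, and the thinned share went from 2.79% to 15.6%. Cd86 went from 10.2 to 90.9 CPM and Pdcd1lg2 from 5.36 to 19.8 CPM. The median depth fell from 14135 to 4432 UMIs per cell over the groups, so that the higher levels were in the shallower cells. A level is a share of UMIs, and counts per cell differed less. Cd80 had 4054 UMIs in the 4138 cells of the first group and 3080 in the 2273 of the last. Cd274 had 1129 and 1484 UMIs, and Pdcd1lg2 377 and 228. The part of depth in the rise of the levels was not tested. Before thinning, the share of positive cells went from 41.5% to 51.2% for Cd80 and from 13.4% to 24.7% for Cd274. It went from 7.93% to 17.5% for Cd86, and for Pdcd1lg2 it was nearly level (7.18% and 7.79%).

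**Figure D3:**
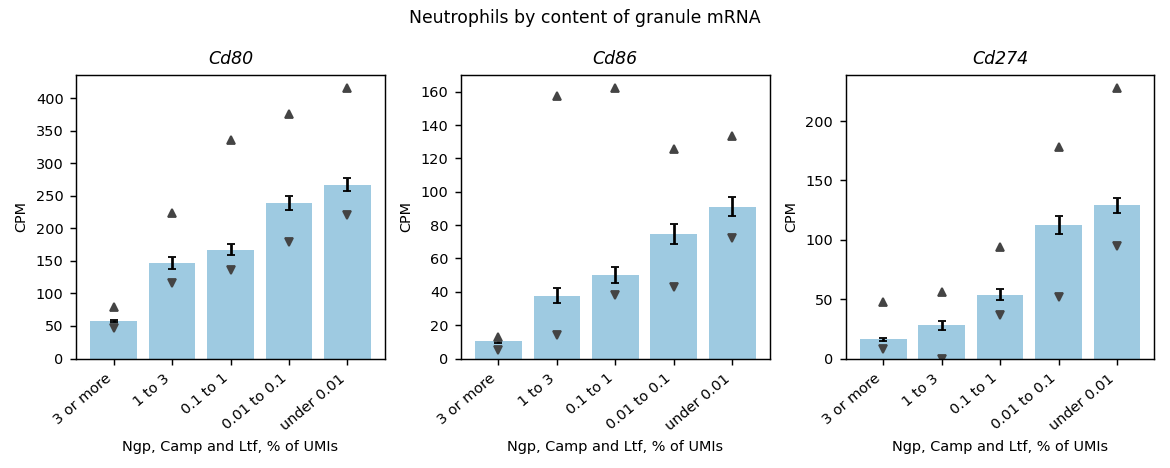
Level of Cd80, Cd86 and Cd274 in CPM in neutrophils grouped by the percent of UMIs from Ngp, Camp and Ltf. Bars are pooled cells with exact Poisson 95% intervals, and triangles mark the lowest and highest of 6 libraries. Cd80 stands at 57.6 CPM in the granule-rich group and at 268 CPM in the granule-poor group.

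The granule-poor neutrophils (less than 0.1%) were split by genes of activation, which were chosen after values were seen. The 948 cells with Rsad2 or Ifit1, genes induced by interferon, had 196 CPM of Cd274 against 95.5 CPM in the other 2898 cells, a ratio of 2.06 (1.59 to 3.22 over libraries, higher in 6 of 6). Cd80 did not separate them (250.3 against 258 CPM, higher in 4 of 6 libraries). The 3187 cells with Ptgs2 or Il1a, genes of inflammatory activation, had 271 CPM of Cd80 against 180 CPM in the other 659 cells, a ratio of 1.51 and higher in 6 of 6 libraries. Cd274 was 1.84 times as high in them, in 5 of 6 libraries, and Cd86 0.952 times. Median depth was close within each split (4698 against 4491 and 4566 against 4381 UMIs per cell).

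The B cells among the sorted cells covered stages from pro-B and pre-B cells to mature cells with Ighd and Fcer2a. Pro-B and pre-B cells still rearrange their antigen receptor genes. Where in the digested joints the B cells lay was not tested. Every presenting-side gene was higher in immature B cells than in pro-B and pre-B cells in 6 of 6 libraries, with ratios from 5.04 for Cd80 to 20.4 for Cd86. For Cd80 in library 4 this rested on 8 against 7 UMIs. The share of all genes with such a rise was not computed. Cd86 was higher at each later stage, with 16.4 CPM in 1224 pro-B and pre-B cells and 98.1, 336 and 595 CPM in 2719 intermediate, 1185 immature and 783 mature B cells. In libraries 1 to 6 it was at 7.79, 13.7, 22.9, 19.6, 17.4 and 20.6 CPM in pro-B and pre-B cells. In mature B cells it was at 523, 466, 710, 755, 486 and 894 CPM. No library of the first stage came near one of the last, at a median depth of 7795 and 5928 UMIs per cell.

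The last step, from immature to mature B cells, divided the presenting-side genes. Cd86 (1.77 times), Icosl (2.28 times) and Pdcd1lg2 (2.74 times) were higher in mature cells in 6 of 6 libraries. For Pdcd1lg2 in library 3 this was 23.0 against 21.4 CPM and rested on 15 against 18 UMIs. Icosl had 33.8, 32.5, 32.1, 29.1, 24.6 and 28.0 CPM in the mature B cells. In the immature B cells it had 11.8, 14.5, 8.33, 11.3, 16.7 and 14.8 CPM, so that the stages did not overlap. Cd40 was lower in mature cells (66.9 against 83.4 CPM) in all 6 libraries. Cd274 was nearly level (126 against 124 CPM, higher in 3 of 6), and Cd80 stayed low in both (30.5 against 24.7 CPM).

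**Figure D4:**
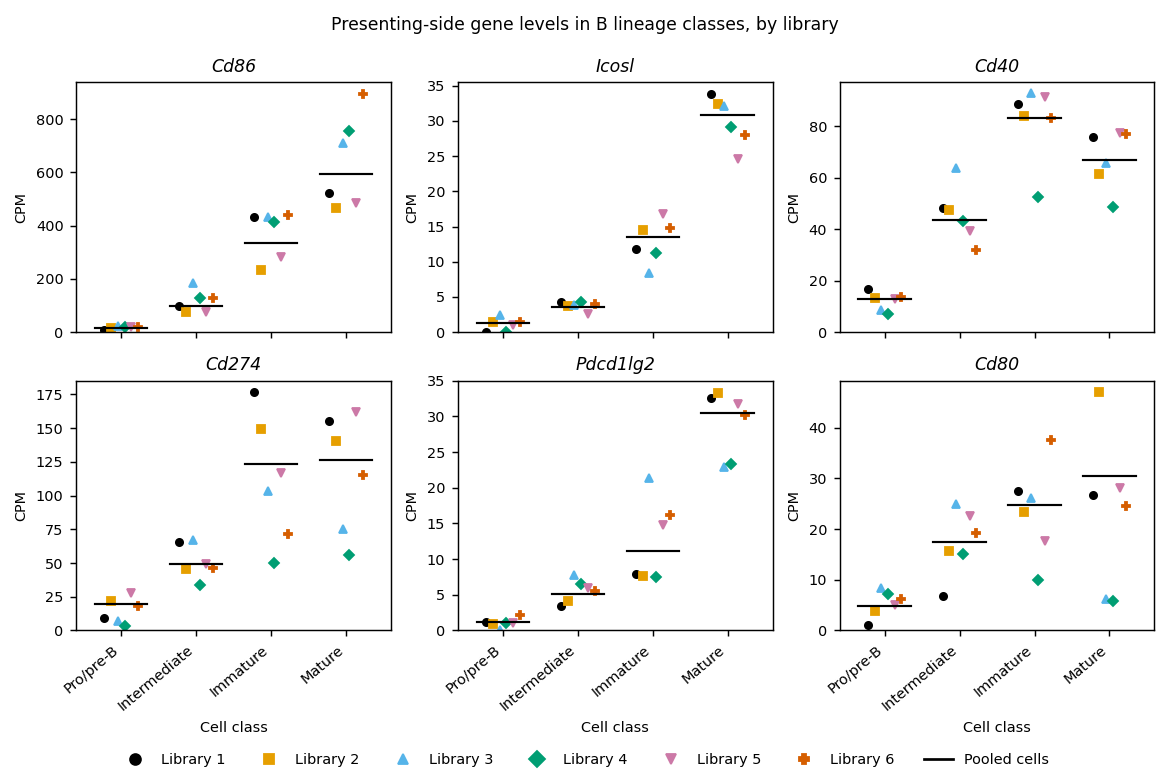
Level of the 6 presenting-side genes in CPM over 4 stages of B cells, with 1 marker shape per library and a line for the pooled cells. Cd86 goes from 16.4 to 595 CPM, and Cd40 is higher in immature (83.4 CPM) than in mature B cells (66.9 CPM).

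Mature B cells also contained RNA of other cells, with 190 CPM summed over macrophage markers (123 to 226 over libraries) and 7219 CPM over neutrophil markers. Pro-B and pre-B cells had less, with 17.3 CPM (5.35 to 28.1 over libraries) and 2554 CPM. The part of this RNA in the differences between stages was not tested. In the 500 mature B cells with no macrophage marker UMI, Cd86 was at 554 CPM, Icosl at 31.1 CPM and Pdcd1lg2 at 28.8 CPM, near the values of all mature B cells, while Cd80 was at 16.0 CPM.

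Among the receptors of the T cell side, Cd28 was found in 67.1% of all T cells, or 34.4% after thinning. It was highest in 173 conventional Cd4 T cells, which had Cd4 and no Foxp3, with 392 CPM [364 to 422], and the libraries gave 420, 363, 505, 385, 325 and 257 CPM. Foxp3 T cells (256 CPM), Cd8 T cells (242 CPM) and other T cells (239 CPM) could not be ranked against each other, while gamma-delta-type T cells (78.8 CPM) and NK cells (71.0 CPM) were lower. Cd28 was found in 89.6% of conventional Cd4 T cells and in 0.256% of neutrophils, at median depths of 8287 and 7386 UMIs per cell.

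Ctla4, the inhibitory receptor for CD80 and CD86, was highest in the 90 Foxp3 T cells, T cells with a UMI of the regulatory T cell factor Foxp3 and none of Cd8a or Cd8b1. It was at 1782 CPM [1692 to 1874] and was found in 96.7% of them, or 87.5% after thinning, compared with 0.639% of neutrophils, at median depths of 6723 and 7386 UMIs per cell. In libraries 1 to 6 the level was 2738, 1693, 1903, 2173, 1177 and 633 CPM. Conventional Cd4 T cells had 207 CPM [187 to 228], with 309, 176, 209, 149, 197 and 90.0 CPM. No library of the first class fell within the range of the second, and the pooled ratio was 8.62 (log2 3.11 [2.95 to 3.27]). The next class, other T cells (273 CPM, 41.3 to 665 over libraries), was lower in each library but overlapped in range. The Foxp3 T cells numbered 9 to 31 per library.

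Icos, the activating receptor for ICOSL, was spread more widely. Foxp3 T cells had 1193 CPM [1120 to 1269], ILC2 903 CPM [842 to 967] and conventional Cd4 T cells 752 CPM [713 to 792]. Over the libraries Foxp3 T cells gave 1475, 1312, 1389, 1071, 753 and 934 CPM, and conventional Cd4 T cells 713, 918, 1009, 447, 874 and 540 CPM. These overlapped, and the ratio of 1.59 (log2 0.67 [0.55 to 0.78]) was above 1 in 5 of 6 libraries. In neutrophils 0.157% of cells showed Icos. Cd28 went the other way with a ratio of 0.653 (log2 -0.61 [-0.83 to -0.39]), and Foxp3 T cells were higher in 1 library. For Pdcd1 the log2 ratio was -0.05 [-0.60 to 0.49], with Foxp3 T cells higher in 3 of 6. As a median over libraries it was -0.71 and in thinned cells -1.47 (28.4 against 78.5 CPM), so its size is not settled.

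The balance of the inhibitory to the stimulatory CD80 and CD86 receptor differed between the T cell classes. There were 6.95 UMIs of Ctla4 per UMI of Cd28 in Foxp3 T cells (3.55 to 8.63 over libraries). There were 0.527 in conventional Cd4 T cells (0.351 to 0.737), 0.386 in Cd8 T cells and 0.172 in gamma-delta-type T cells. Ctla4 and Icos were both detected in 83 of 90 Foxp3 T cells (92.2%, or 71.6% after thinning) and in 44.5% of conventional Cd4 T cells (18.0% after thinning). In Foxp3 T cells the single shares were 96.7% for Ctla4 and 95.6% for Icos. Whether both genes met more often than the single shares give was not tested. Conventional Cd4 T cells were above Cd8 T cells for Cd28 (1.62 times), Ctla4 (2.21 times) and Icos (3.02 times) in 6 of 6 libraries, and for Pdcd1 (1.47 times) in 5 of 6.

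Pdcd1, the rarest of the 10 genes with 1192 UMIs, was highest outside the Cd4 T cells. ILC2, lymphocytes without antigen receptor that make type 2 cytokines, had 131 CPM [109 to 157], with 75.7, 279, 103, 107, 71.1 and 143 CPM over the libraries. Gamma-delta-type T cells had 107 CPM [93.2 to 122], with 89.2, 71.3, 128, 177, 62.1 and 99.8 CPM. These classes could not be ranked, since ILC2 were higher in 3 of 6 libraries, and without library 2 the gamma-delta-type T cells were the highest class with 116 CPM. Conventional Cd4 T cells had 48.3 CPM, with 60.3, 38.5, 23.8, 45.3, 58.5 and 63.0 CPM. Both ILC2 (2.72 times) and gamma-delta-type T cells (2.21 times) were above them in 6 of 6 libraries. For gamma-delta-type T cells in library 5 this was 62.1 against 58.5 CPM, from 15 against 16 UMIs. The ILC2 value of library 1 rested on 5 UMIs in 7 cells. In thinned cells the differences were smaller. ILC2 then had 115.8 CPM, gamma-delta-type T cells 111.8 CPM and conventional Cd4 T cells 78.5 CPM. ILC2 numbered 7 to 27 cells per library.

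The gamma-delta-type T cells had little Ctla4 and Cd28, while Icos was at 308 CPM. Compared with conventional Cd4 T cells they had 0.0655 times the Ctla4, 0.201 times the Cd28 and 0.409 times the Icos, and were lower in every library. There were 2.88 UMIs of Icos per UMI of Pdcd1 in gamma-delta-type T cells, 6.88 in ILC2, 15.6 in conventional Cd4 T cells and 25.6 in Foxp3 T cells. NK cells, which also lack an antigen receptor, showed Pdcd1 in 0 of 247 cells at a median of 8181 UMIs per cell. By the same limit up to 1.21% of NK cells could hold a UMI of Pdcd1, which does not limit how many express it. Icos was 28.1 times as high in ILC2 as in NK cells and at least 12.9 times as high in each library.

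**Figure D5:**
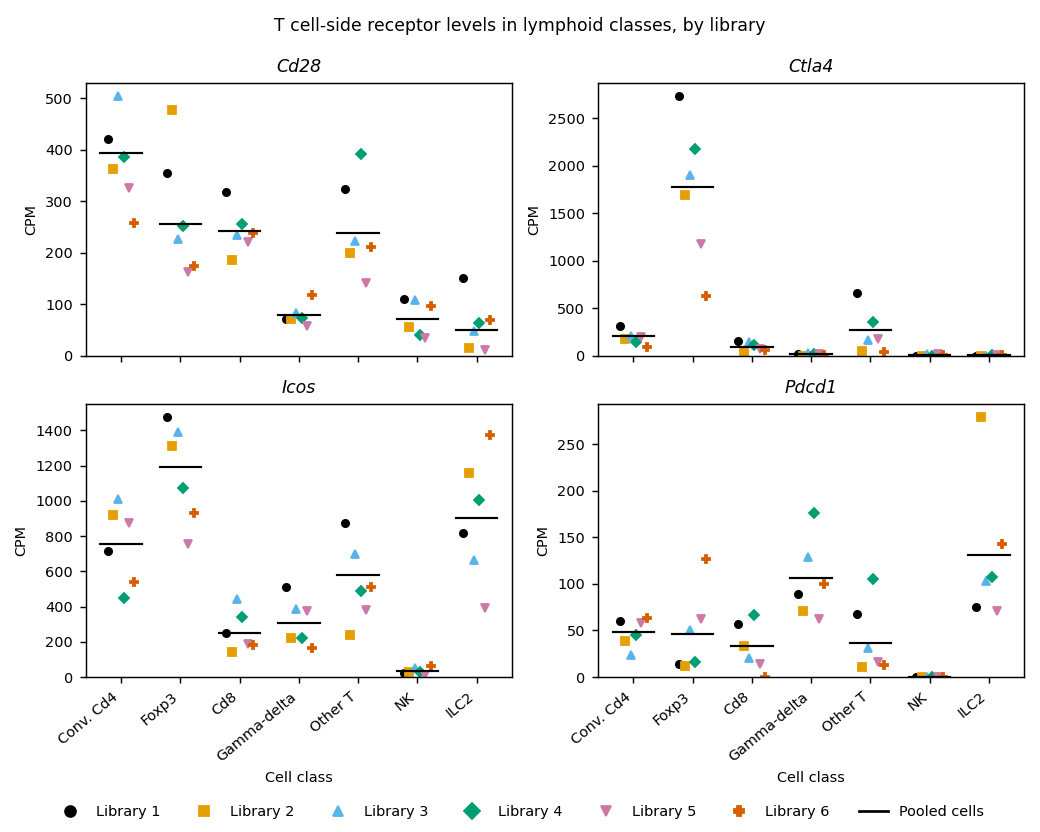
Level of the 4 receptor genes of the T cell side in CPM in T cell classes, NK cells and ILC2, with 1 marker shape per library and a line for the pooled cells. Ctla4 stands out in Foxp3 T cells (1782 CPM), while Pdcd1 is highest in ILC2 (131 CPM) and gamma-delta-type T cells (107 CPM).

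RNA of T cell marker genes was present in ILC2, with 316 CPM summed over 6 genes and at least 1 UMI in 67.0% of the cells. In the 32 ILC2 without any, Icos was at 845 CPM (23 cells positive) and Pdcd1 at 97.2 CPM (7 cells positive).

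The PD-1 ligand genes were not confined to antigen-presenting cells. Foxp3 T cells had 295 CPM [259 to 334] of Cd274, with 241, 203, 385, 299, 267 and 190 CPM over the libraries. Conventional Cd4 T cells had 133 CPM, with 193, 88.0, 100.4, 58.2, 212 and 99.0 CPM. Foxp3 T cells were higher in 6 of 6 libraries, although the ranges overlapped slightly. Pdcd1lg2 was at 61.2 CPM in ILC2, 55.7 CPM in NK cells, 47.7 CPM in Foxp3 T cells and 39.2 CPM in conventional Cd4 T cells. In the pooled values these levels exceeded the 33.0 CPM of type 2 dendritic cells. Over libraries type 2 dendritic cells (8.15 to 61.5 CPM) overlapped with each of these classes. ILC2 ran from 25.4 to 100.7 CPM and NK cells from 17.2 to 74.1 CPM. Foxp3 T cells ran from 30.4 to 157.5 CPM and conventional Cd4 T cells from 25.6 to 67.5 CPM. In thinned cells conventional Cd4 T cells were lower than type 2 dendritic cells (14.5 against 27.4 CPM), so the order of these classes is not settled. NK cells gave 67.7, 44.6, 70.9, 17.2, 60.8 and 74.1 CPM, so that 1 library was well below the rest.

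Cd80 and Cd86 in T cells were less clear. Foxp3 T cells had 89.4 CPM of Cd80 and 178 CPM of Cd86, and these cells also held 96.6 CPM of summed macrophage markers (0 to 324 over libraries, 8 of 9 genes detected) and 3855 CPM of neutrophil markers. The 7 markers of Ccr7 dendritic cells summed to 209 CPM in Foxp3 T cells (15.8 to 369 over libraries, 26.7% of cells) and to 113 CPM in conventional Cd4 T cells (27.8% of cells). Of these sums 178 and 93.9 CPM were Ccr7 itself, which resting T cells also express, and the other 6 markers gave 31.0 and 19.3 CPM. In the 74 Foxp3 T cells with no UMI of a macrophage marker, none of which had one of those 6 markers either, Cd86 was at 47.8 CPM [30.9 to 70.6] and Cd80 at 63.1 CPM [43.4 to 88.6]. In these cells Cd274 was at 323 CPM [276 to 376] and Ctla4 at 2174 CPM, no lower than in all Foxp3 T cells. Pdcd1lg2 was at 59.3 CPM in them. In the 153 conventional Cd4 T cells with no macrophage marker UMI, Cd80 was at 5.79 CPM and Cd86 at 21.2 CPM, compared with 21.5 and 73.5 CPM in all. In the 146 of them without the other 6 Ccr7 dendritic cell markers as well, Cd274 was at 125 CPM and Pdcd1lg2 at 37.9 CPM.

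The T cell-side receptor genes were also seen at low levels outside T and innate lymphoid cells. Type 1 dendritic cells, which present antigen to Cd8 T cells, had 21.2 CPM of Ctla4 [16.1 to 27.3], and 25 of 105 cells were positive. The libraries were uneven, with 13.9, 6.10, 44.1, 4.61, 10.7 and 103 CPM. Of the 101 cells with no T cell marker UMI, 23 were still positive, compared with 22 of 657 type 2 dendritic cells.

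Plasmacytoid dendritic cells, the interferon-producing type, had 24.6 CPM of Cd28 [21.3 to 28.2] with 52.6, 20.9, 2.22, 5.34, 29.5 and 27.9 CPM over the libraries. Of the 567 without a T cell marker UMI, 102 were positive. Stem and progenitor cells had 9.76 CPM of Pdcd1 [7.84 to 12.0], with 4.16, 4.86, 5.90, 13.4, 13.2 and 11.9 CPM, and 42 of the 363 without a T cell marker were positive. Their median depth was 22080 UMIs, and after thinning 1.84% of them showed Pdcd1. In macrophages Cd28 was at 1.46 CPM, Ctla4 at 1.11 CPM, Icos at 0.473 CPM and Pdcd1 at 0.225 CPM. The mixed cells, left out of the classes, held 27.4% of the UMIs of Ctla4, 18.2% of Icos, 16.4% of Cd28 and 11.2% of Pdcd1.

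Of 30 other costimulatory and checkpoint genes, 27 were in the table. Their highest class was a T, NK or innate lymphoid class for 14 and a dendritic cell class for 8. It was a B cell class for 2, a macrophage class for 1 and another class for 2. These counts only describe the list, since the same shares over all genes were not computed. Vtcn1 had only 15 UMIs in all cells. For Cd276 and Cd48 the highest class was only 1.06 and 1.05 times the next. In Foxp3 T cells the receptors of the tumor necrosis factor family stood beside Ctla4: Tnfrsf4 (OX40) at 1296 CPM (799 to 2227 over libraries), Tnfrsf9 (4-1BB) at 1156 CPM and Tnfrsf18 (GITR) at 667 CPM. The ligand of OX40, Tnfsf4, was highest in Ccr7 dendritic cells (59.9 CPM), as were Cd70, the ligand of CD27 (18.0 CPM), Cd200 (196 CPM) and Pvr (88.0 CPM). For Pvr type 2 dendritic cells were close, at 73.3 CPM. The ligands of 4-1BB and GITR peaked elsewhere. Tnfsf9 was highest in type 2 dendritic cells (158 CPM, against 120 CPM in Ccr7 dendritic cells) and Tnfsf18 in ILC2 (3.34 CPM). Cd40lg, whose product engages CD40, was highest in conventional Cd4 T cells at 174 CPM (113 to 213 over libraries), and Foxp3 T cells had 17.9 CPM.

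Several inhibitory receptors were highest outside the T cells. Havcr2 (TIM-3) was at 312 CPM in type 1 dendritic cells (201 to 375 over libraries) and Lag3 at 50.1 CPM in plasmacytoid dendritic cells (next class 7.91 CPM). Btla was at 330 CPM in mature B cells, with immature B cells close behind at 294 CPM. Vsir, which encodes VISTA, was at 242 CPM in neutrophils (209 to 266 over libraries), and resident macrophages came close with 212 CPM.

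The genes most like each of the 10 were sought by Pearson's r of log2(CPM + 1) over the 26 classes among 12117 genes, a description over classes that share libraries and differ in depth. The 10 genes and every marker used in a gate were left out of this search, so a marker could not appear as a match. Cd80 was most like Nod2 (r = 0.912), Il1b (0.911) and Alcam (0.905), and Cd86 like Irf5 (0.888). Cd40 was most like Ifi30 (0.876), a gene of antigen processing, with H2-Ab1 and Ciita of MHC class II next. Cd274 was most like Nfkb2 (0.906) and Pdcd1lg2 like Traf1 (0.867), both of the NF-kB pathway. Cd274 was also like Ric1, which begins 51.1 kb beyond Pdcd1lg2 on chromosome 19. Icosl had the weakest match, H2-DMb2 (0.753).

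Among the receptors, Cd28 was most like Cd96 (0.964), Ctla4 like Cd5 (0.934), Icos like Gm12167 (0.977) and Pdcd1 like Xlr4a (0.935). Among pairs of the 10 genes themselves, r was 0.936 for Cd28 and Icos, 0.894 for Icos and Pdcd1 and 0.838 both for Cd274 with Pdcd1lg2 and for Cd86 with Cd40.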

How the data were processed

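Cells with CD45 were sorted from the synovium, and libraries were made with a 3′ droplet kit. The authors aligned reads to mm10 (Cell Ranger 7 in the submitters' processing notes), removed ambient RNA with SoupX and doublets with DoubletFinder before deposit, and filtered cells with Seurat. They deposited 1 table of UMI counts, whole numbers not scaled for depth. Whether the ambient RNA step changed these counts was not tested. The table holds 1724738 stored zeros. No doublet caller was run on it, and no batch integration was applied.

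Groups come from the labels (PBS 2 samples, PEPITEM 4), but barcodes were split only by library number. The 10 genes, the marker lists and the list of other pathway genes were chosen with earlier results of these data known, and the rule that turns markers into gates was set after the marker distributions were seen. A cell took a class when it held enough markers of the list, cells that passed gates of different lineages were called mixed, and a library value needed at least 5 cells. Genes named beside the 10 are those on the fixed list, the genes around the pathway and, per gene, the 3 genes most like it over classes. The last were sought among genes that reach 10 CPM in at least 1 class and are neither 1 of the 10 nor a marker used in a gate. Genes that split the neutrophils, and subsets without markers of other cells, were chosen after values were seen.

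Counts were summed by class and library and divided by the class total. Intervals of a ratio were computed on the log2 scale from the counts. No test was run, since no library has a known treatment. Thinning drew 2000 UMIs per cell (seed 11). The alternatives were Leiden clusters named from the same markers (2000 variable genes, 30 components, 15 neighbors, resolution 2), 1 more marker per gate, the median over libraries, thinned cells, and each library left out. The scripts were tested on simulated counts. Python 3.11.15, numpy 2.4.6, scipy 1.17.1, pandas 2.3.3, scanpy 1.11.5, igraph 0.11.9 and matplotlib 3.10.9 were used. The depth of 47273569 to 123367661 UMIs per library bounds the precision, and classes under 200 cells, such as Foxp3 T cells and ILC2, are the least precise.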

Additional observations from a re-analysis of the deposited data

How the results depend on the processing

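Every log2 ratio between Ccr7 dendritic cells and macrophages kept its sign under each alternative, and so did Cd28, Ctla4 and Icos between Foxp3 and conventional Cd4 T cells. Of 200 recomputed values 170 were counted as unmoved and 30 moved further than the error. The 200 hold both log2 ratios and ranks of each gene's highest class. A rank has no counting error and was nearly always kept, so the 170 overstate how steady the ratios were. With Leiden clusters the log2 ratios were 1.99 for Cd80, 1.38 for Cd86, 3.21 for Icosl and 2.60 for Cd274. With 1 more marker they were 2.05, 1.21, 2.97 and 2.75. As a median over libraries they were 1.82 for Cd80, 1.15 for Cd86, 3.78 for Pdcd1lg2 and -0.71 for Pdcd1. In thinned cells they were 2.01 for Cd80, 1.16 for Cd86, 2.35 for Icosl, 2.70 for Cd274, 4.47 for Pdcd1lg2, -0.87 for Cd28 and -1.47 for Pdcd1. The cause was not tested.

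Leaving out each library in turn gave log2 ratios of 1.866 to 1.956 for Cd80, 0.97 to 1.19 for Cd86 and 1.93 to 2.20 for Cd40. They were 2.45 to 2.75 for Icosl, 2.23 to 2.43 for Cd274 and 3.89 to 4.22 for Pdcd1lg2. It gave -0.77 to -0.42 for Cd28, 3.004 to 3.235 for Ctla4, 0.57 to 0.86 for Icos and -0.30 to 0.27 for Pdcd1, whose direction is therefore not set. The class with the highest level was kept for all 10 genes under all alternatives, except that without library 2 ILC2 ranked 2 for Pdcd1 behind gamma-delta-type T cells. Arg1 macrophages and type 1 dendritic cells had no Leiden cluster of their own. No paired analysis was possible because the barcodes are not linked to samples. Few cells limit the T cell and ILC2 values most.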
